A study of Mus musculus with 4 samples.

Results

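Probes 2org-221 and 2org-222 carry the numbers of miR-221 and miR-222, a pair of microRNAs (miRNAs) encoded side by side on the mouse X chromosome. They are 2 of the 171 miRNA probes of a 2-colour array of 178 probes. They were named for this description, and had been chosen on their values: in an earlier pass over the same 4 arrays they had the lowest mean ratios. Their ratios are therefore given as a description, with no test. The platform annotation listed neither probe, so both are called by their IDs, and the identity with miR-221 and miR-222 rests on the number in the ID.

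The arrays set RNA of mouse activated T cells transduced with FoxP3 against RNA of the same kind of cells that had received a control vector. Total RNA of both was hybridised together at 72 h and again at 96 h, on 2 arrays of exchanged dyes at each time, and each time point was counted as 1 replicate. Activation and transduction were shared by both arms, and the sources used here do not give the strain, the vector, the purity of the transduced cells or whether the times were separate cultures. A ratio carries no level, so the T cell identity could not be checked from marker levels, and fewer cells of a type cannot be told apart from less RNA per cell.

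FoxP3 is the transcription factor that specifies regulatory T cells. MiR-221 and miR-222 are processed from a shared primary transcript and recognise targets through the same seed, the bases at positions 2 to 8 of the mature strand. They are best known for repressing the cyclin-dependent kinase inhibitors Cdkn1b (p27) and Cdkn1c (p57), which hold cells out of the division cycle, and the receptor Kit. They are abundant in many dividing and transformed cells, and T cell activation is among the stimuli known to raise them.

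The mature strands are shown because the common seed, in capitals, is what makes the pair a single family. Both are the 3p arms, which long carried the plain names miR-221 and miR-222. The probe IDs name no arm. Sequences and coordinates are those of RefSeq, build GRCm38.p6, on the minus strand, at chrX:19146307-19146329 for miR-221-3p and chrX:19146901-19146923 for miR-222-3p.

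mmu-miR-221-3p: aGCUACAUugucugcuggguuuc

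mmu-miR-222-3p: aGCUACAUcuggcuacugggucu

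The first 8 bases were identical and 12 of the 23 positions differed, all of them after position 8. Counted from the 5′ end, with the miR-221-3p base first, the differences were U9C, G10U, U11G, C12G, U13C, G14U, C15A, U16C, G17U, U20G, U22C and C23U. Of 1738 mature mouse miRNAs in the RefSeq table, 3 carried this seed, which is 0.173%. The third was miR-1928, with no probe of that number on the array. Of the 171 miRNA probes, 115 matched a RefSeq mature name by number, and none of these outside the pair had an arm with the seed. The probe sequences were not used here, so how far each probe takes up the other miRNA was not tested.

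The hairpins show the position of each mature 3p strand, in capitals, near the 3′ end. The Mir221 hairpin spans 95 bases at chrX:19146294-19146388, and the Mir222 hairpin spans 79 bases at chrX:19146893-19146971. They are separated by 504 bases, and Mir222 comes first in the direction of transcription. The nearest other miRNA hairpin in the table lies 1716 kb away.

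Mir221: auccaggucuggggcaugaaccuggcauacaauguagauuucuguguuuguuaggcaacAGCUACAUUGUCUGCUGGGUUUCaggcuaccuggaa

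Mir222: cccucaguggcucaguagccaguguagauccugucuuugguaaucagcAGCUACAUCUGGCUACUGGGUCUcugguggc

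The deposited values are log ratios of the channels of each array, taken here as base 2. At 72 h, 2org-221 had -0.485 on the array with FoxP3 RNA in Cy5 (the Cy5-FoxP3 array) and 0.716 on the array with FoxP3 RNA in Cy3 (the Cy3-FoxP3 array). At 96 h it had -1.452 with FoxP3 RNA in Cy5 and 2.255 with it in Cy3. Both swaps thus gave opposite signs, and the 96 h values lay further from 0 than the 72 h values.

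Probe 2org-222 had -0.810 and 0.981 on the corresponding 72 h arrays, and -1.695 and 2.543 on the 96 h arrays. It lay further from 0 than 2org-221 on each of the 4 arrays, on the same side. A ratio that follows the RNA changes sign when dyes are exchanged, and one that follows the dye does not. Of all 171 miRNA probes, 15 (8.77%) had opposite signs in both swaps, and both probes of the pair were among them. Over all miRNA probes the 2 arrays of a time point correlated at r = 0.66 at 72 h and -0.12 at 96 h. This is a description across probes, which share arrays and dyes.

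**Figure D1:**
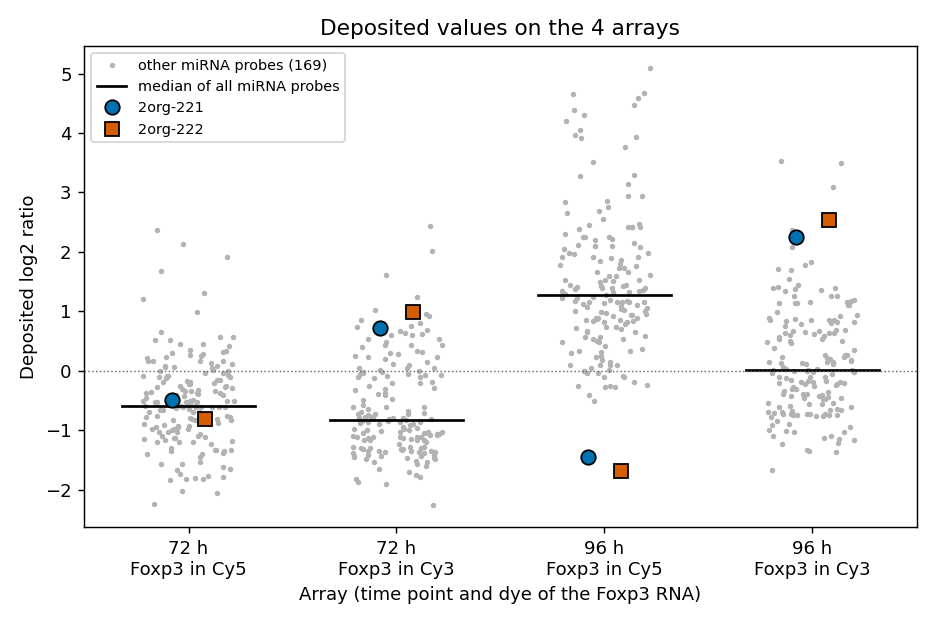
Deposited log2 ratio (y axis) of every miRNA probe on each of the 4 arrays (x axis, by time and dye of the FoxP3 RNA). Grey points are the other 169 miRNA probes and black lines the array medians. 2org-221 and 2org-222 sit close to the median of -0.59 on the 72 h Cy5-FoxP3 array, and at -1.452 and -1.695 at the bottom of the 96 h Cy5-FoxP3 array.

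The place of the pair within each array does not depend on how the array was centred. On the 96 h Cy5-FoxP3 array, 2org-222 was the lowest of 171 miRNA probes and 2org-221 the next, at ranks 1 and 2. On the 96 h Cy3-FoxP3 array they were at ranks 4 and 6 from the highest. On the 72 h Cy3-FoxP3 array, 2org-222 was at rank 6 and 2org-221 at rank 13 from the highest. The 72 h Cy5-FoxP3 array stood apart from these 3. There 2org-222 was at rank 61 and 2org-221 at rank 96 from the lowest, in the middle of the array.

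No label states which channel is the numerator. The values were read as Cy5 over Cy3, and on arrays where the FoxP3 RNA carried Cy3 the sign was turned, so that a value below 0 means likely lower with FoxP3. Likely refers only to this reading. In it, 2org-221 had -0.485 and -0.716 at 72 h and -1.452 and -2.255 at 96 h, and 2org-222 had -0.810 and -0.981 at 72 h and -1.695 and -2.543 at 96 h. Each probe was below 0 on all 4 arrays, as were 10 of 171 miRNA probes (5.85%).

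The 2org-221 mean over the time points was -1.23 ± 0.89 (SD, n = 2), or 2.34-fold lower. The 2org-222 mean was -1.51 ± 0.87 (SD, n = 2), or 2.84-fold lower. The median over all miRNA probes was 0.45. These means are the values the pair was chosen for. If the deposited values were natural logarithms, the folds would be 3.41 and 4.51.

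At 72 h the pair was among the lower probes and not set apart from them. The 72 h mean was -0.60 for 2org-221 (1.52-fold lower) and -0.90 for 2org-222 (1.86-fold lower), at ranks 8 and 1 from the lowest of 171. The median of all miRNA probes was 0.07. The mean of the 72 h swap was past 1.5-fold, with the same sign on both arrays, for 13 of 171 miRNA probes (7.60%), 9 of them likely lower (5.26%), and both probes of the pair were counted there. 2org-221 was just inside this threshold, and it fell short on the Cy5-FoxP3 array alone.

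At 96 h the pair lay apart from the rest on the lower side. The 96 h mean was -1.85 for 2org-221 (3.61-fold lower) and -2.12 for 2org-222 (4.34-fold lower), and the next lowest probe, 1org-20, listed as Mir20a, was at -1.09. The median of all miRNA probes was 0.81. By the same rule on the mean, 88 of 171 were past 1.5-fold at 96 h (51.5%), but only 9 were likely lower (5.26%), the pair included. Without the 96 h Cy5-FoxP3 array the split was 56 likely lower and 41 likely higher, against 9 and 79 with it. The former split rests on 1 array, so the same sign on both arrays was not required for it. Without the 96 h Cy5-FoxP3 array, 2org-221 and 2org-222 were at ranks 6 and 4 from the lowest at 96 h. Their means over both times were then at ranks 5 and 3. Past 1.5-fold likely lower at both times by the rule on all arrays were 3 of 171 (1.75%), namely the pair and Mir20a. As the pair was chosen on this contrast, nothing is read from these counts.

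**Figure D2:**
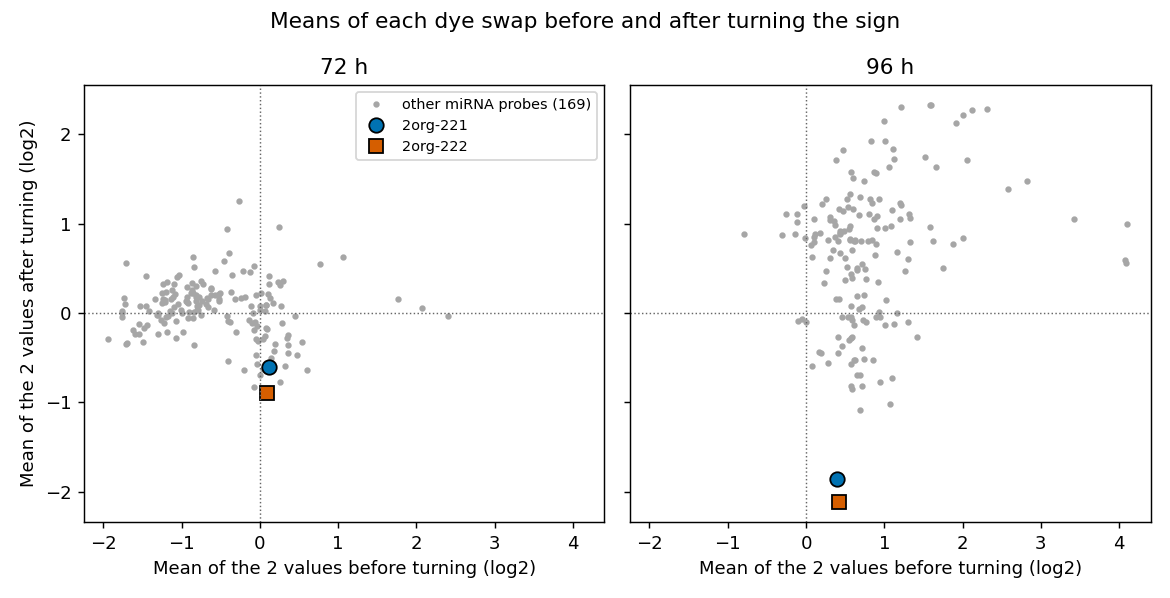
Mean of the 2 arrays of a dye swap before turning the sign (x axis, log2) against the mean after turning (y axis, log2) for 171 miRNA probes at 72 h (left) and 96 h (right). The first collects what follows the dye and the second what follows the RNA, if the values are channel ratios. At 96 h the pair lies at -1.85 and -2.12 on the y axis, below every other miRNA probe, with 0.40 and 0.42 on the x axis.

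The mean before turning holds what both arrays of a swap share. For 2org-221 it was 0.12 at 72 h and 0.40 at 96 h, and for 2org-222 it was 0.09 and 0.42. Over all miRNA probes its median was -0.67 at 72 h and 0.65 at 96 h. So the pair lay above most other probes at 72 h, at ranks 28 and 32 from the highest, and below most of them at 96 h, at ranks 37 and 43 from the lowest. These numbers are also the ratios of the pair if the authors had already turned every array to FoxP3 over control. In that reading both probes were near or above 0, with means of 0.26 ± 0.20 for 2org-221 and 0.25 ± 0.24 for 2org-222 (SD, n = 2), and the arrays of each time point had opposite signs. The direction given here therefore holds for the Cy5 over Cy3 reading alone. Read as Cy3 over Cy5, every turned value would change its sign, and the pair would lie above 0 on all 4 arrays. Below, the other reading means the already turned one.

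The 2 probes were then compared with each other. Their difference on an array is free of that array's centring, and it compares ratios, not levels. In the turned values, 2org-222 minus 2org-221 was -0.325 and -0.265 on the 72 h arrays and -0.243 and -0.288 on the 96 h arrays. The mean difference was -0.28 ± 0.02 (SD, n = 2), or 1.21-fold, with the same sign on 4 of 4 arrays. It moved by 0.082 at most between arrays, while each probe's own mean moved by over 1.2 between the times. Without turning, the difference averaged -0.03 at 72 h and 0.02 at 96 h.

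Over the 4 turned values, each of the pair was the other's nearest probe. Their Euclidean distance was 0.56, and the next nearest probe lay at 1.34 from 2org-221 and 1.71 from 2org-222. Of 14535 pairs of miRNA probes, 302 (2.08%) were closer to each other, and the median distance over all pairs was 2.14. The median miRNA probe had its own nearest probe at 0.40. The pair was thus close, but no closer than a typical probe and its nearest one, and it stood apart from the rest. Both were chosen for the lowest means of these same values, which favours such distances, so nothing is read from them. Distances between probes do not change with centring or with the reading of the sign.

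The 5 miRNA probes nearest to the mean of the pair were Mir20a, Mir15a, 2org-210, 1org-34c and 1org-142-as, at distances of 1.51, 1.66, 1.66, 1.85 and 1.90. Mir20a belongs to the miR-17-92 cluster, which supports lymphocyte proliferation, and Mir15a restrains Bcl2 and the cell cycle. On the 72 h arrays Mir20a had turned values of -0.034 and -1.243, and on the 96 h arrays -0.406 and -1.774. 2org-210, with the number of the hypoxia-induced miR-210, had -0.699 and -0.689 at 72 h, and 0.052 and -2.082 at 96 h. All 5 were between -0.41 and 0.05 on the 96 h Cy5-FoxP3 array, where the pair was at -1.452 and -1.695. That array separated the pair from its neighbours most.

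In the order of means over both times, Mir20a followed 2org-221 at -0.86 ± 0.32, 2org-210 at -0.85 ± 0.23 and Mir15a at -0.71 ± 0.19 (SD, n = 2). The step from 2org-221 to Mir20a was smaller than the SD of 2org-221 between the times. That SD holds the probe's own change with time, so it does not measure the error of the step. 2org-221 and Mir20a were at -0.60 and -0.64 at 72 h, and at -1.85 and -1.09 at 96 h. Whether they differ was not tested. Probe 1org-34c, which the annotation lists as Mir34a, had a mean of -0.54 ± 0.40, and 1org-142-as, with the number of a miRNA of blood cells, had -0.60 ± 0.13 (SD, n = 2). In the other reading of the sign the means of the 5 were 0.28 to 0.64.

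**Figure D3:**
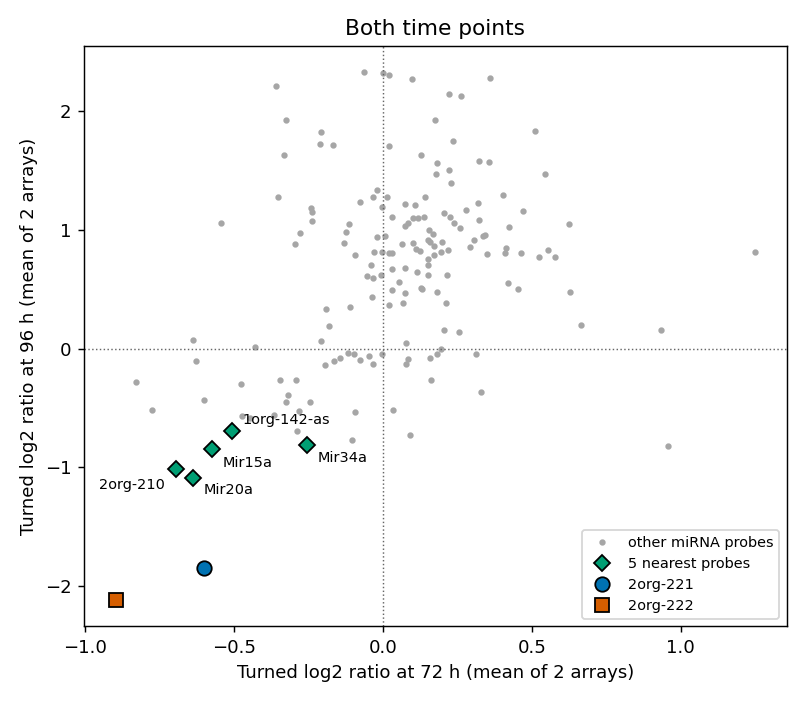
Turned log2 ratio at 72 h (x axis) against 96 h (y axis), each the mean of 2 arrays, for the 171 miRNA probes. Green diamonds are the 5 probes nearest to the pair, which lie between -0.70 and -1.09 at 96 h, while 2org-221 and 2org-222 lie at -1.85 and -2.12.

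Both probes were further below 0 at 96 h than at 72 h. The 96 h minus 72 h difference was -1.25 for 2org-221 (2.38-fold) and -1.22 for 2org-222 (2.34-fold). Most miRNA probes went the other way: 132 of 171 were higher at 96 h, 39 were lower, and the median difference was 0.61. The pair was at ranks 2 and 3 from the lowest for this difference. Each time point is 1 replicate, so the difference between times could not be tested. It was -1.65 for each probe without the 96 h Cy5-FoxP3 array, and -0.85 and -0.80 without the 96 h Cy3-FoxP3 array. In the other reading the pair was higher at 96 h, by 0.29 and 0.34, but lower by 1.06 and 1.01 once the arrays were also centred on their miRNA medians.

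The arrays shared no centring, with miRNA medians of -0.59 and -0.83 for the 72 h swap and 1.27 and 0.02 for the 96 h swap. Centred on those medians, 2org-221 had turned values of 0.103 and -1.542 at 72 h, then -2.718 and -2.235 at 96 h. Probe 2org-222 had -0.222 and -1.807 at 72 h, then -2.961 and -2.523 at 96 h. The sign of 2org-221 on the 72 h Cy5-FoxP3 array thus depended on the centring, while the ranks of the means, 8 and 1 at 72 h and 2 and 1 at 96 h, cannot change with a shift common to all probes. Centred on the U6 and 4 tRNA control probes, all 4 turned values of each probe were below 0. The means were then -0.64 and -0.93 at 72 h and -1.53 and -1.79 at 96 h, for 2org-221 and 2org-222 in turn. Opposite signs in both swaps were found for 21 of 171 probes (12.3%) after centring on the miRNA medians, with 2org-222 but not 2org-221, and for 26 (15.2%) relative to the U6 and tRNA probes, with both.

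**Figure D4:**
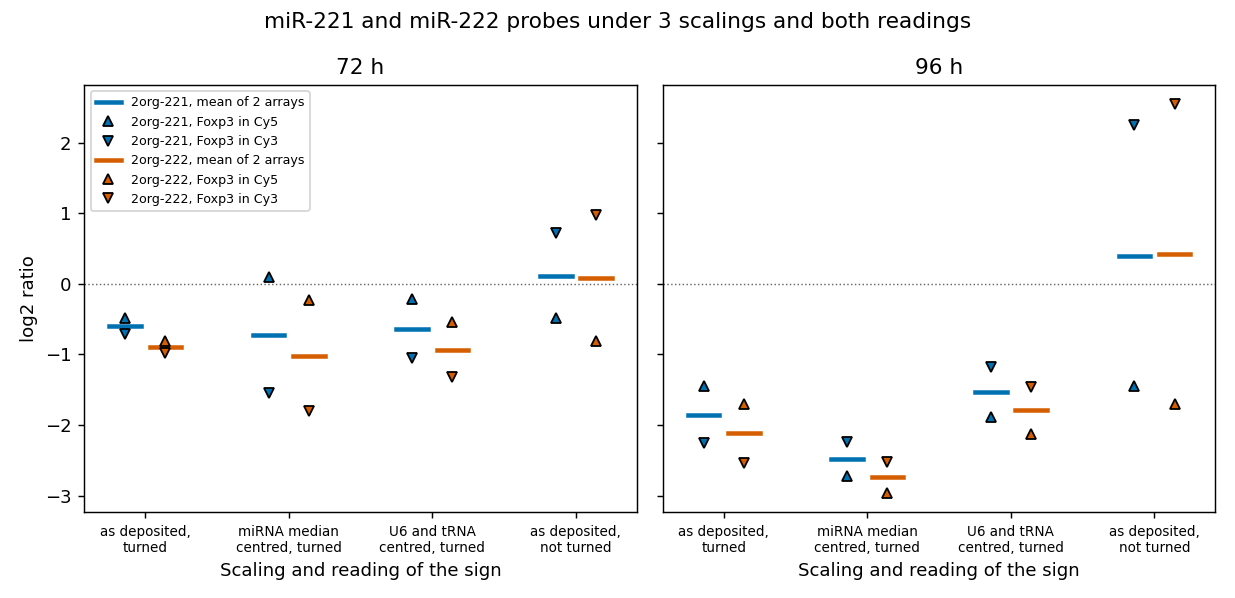
Log2 ratios of both probes (y axis) at 72 h (left) and 96 h (right), under 3 scalings with the sign turned and without turning (x axis). Triangles are single arrays, pointing up with FoxP3 in Cy5 and down with it in Cy3, and bars are means of 2 arrays. At 96 h the turned means run from -1.53 to -2.74, and without turning they are 0.40 and 0.42.

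The pair was next set beside miRNAs of related function, matched by the number in the probe ID. No listed probe passed limma over all miRNA probes, which called 0 of 171 (0%) at an adjusted p under 0.05, with a lowest adjusted p of 0.307 and 16 probes at an unadjusted p under 0.05. Lists are described by counts and medians, beside those of the 169 miRNA probes outside the pair, of which 31 lay below 0 at both times and 91 above, and 51 and 52 after centring on the miRNA medians. Of 18 probes for miRNAs induced by T cell activation, to which the pair also belongs, 6 lay below 0 at both times and 9 above. Their median was 0.16, against 0.46 over those 169. After centring on the miRNA medians it was -0.21, with 8 below and 7 above, and in the other reading 0.26, with 0 below and 8 above. The lowest was Mir20a at -0.86 ± 0.32 and the highest Mir31 at 1.03 ± 0.31 (SD, n = 2).

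Of 30 probes for miRNAs that fall on T cell activation, 13 lay below 0 at both times and 10 above, with a median of -0.17, against 31 and 91 of the 169. The range ran from Mir15a at -0.71 ± 0.19 to 1org-30a at 0.57 ± 0.32 (SD, n = 2). The median was -0.54 after centring on the miRNA medians and 0.26 in the other reading.

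Members of the miR-17 and miR-25 families repress Cdkn1a (p21) and Cdkn1c, inhibitors of the same Cip/Kip kind as the targets of the pair. Of 7 probes listed from these families, 6 lay below 0 at both times and 1 above, against 31 and 91 of the 169, with a median of -0.28. Mir20a was the lowest, and Mir25 (-0.39) and Mir93 (-0.28) were nearer to 0. The exception in the list was 2org-17-3p at 0.83 ± 0.92 (SD, n = 2), which names the other arm of miR-17 and so does not share that seed. The list did not take in 2org-32 (Mir32) and 1org-92, also of the miR-25 family. Mir32 lay above 0 at both times (0.31 and 0.92), and 1org-92 lay below (-0.12 and -0.04). Below 0 at both times were 3 of 7 relative to U6 and tRNA and 0 of 7 in the other reading, with a median of 0.32.

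Of 11 probes for miRNAs reported as higher in regulatory T cells, 2 lay below 0 at both times and 4 above, against 31 and 91 of the 169. Their median was 0.13, against 0.46 over those 169. The 11 ran from Mir23b at -0.08 ± 0.07 to 2org-223 at 0.81 ± 1.44 (SD, n = 2). Centring on the miRNA medians put their median at -0.24, against 0.09 over the 169. In the other reading it was 0.28, with 1 below and 5 above, against 9 and 39 of the 169.

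The list of other X-chromosomal miRNAs was set up after the values had been seen. Of 7 other probes whose RefSeq hairpins all lie on X, 1 lay below 0 at both times, 1org-106a at -0.09 ± 0.02, and 5 lay above. The highest was 2org-224 at 1.32 ± 1.36 (SD, n = 2), and the median was 0.77. Above 0 at both times were 91 of the 169 outside the pair. After centring on the miRNA medians 1 of the 7 lay below and 3 above. In the other reading 0 of 7 lay below 0 at both times and the median was 0.18. The ID prefix 2org, whose meaning the sources do not give, did not mark low values: of the other 42 probes with it, 9 lay below 0 at both times, and their medians were 0.05 at 72 h and 0.71 at 96 h.

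Probes for miRNAs of other cell types lay on the opposite side to the pair at 96 h, as did most miRNA probes, whose median was 0.81. Matched probes were counted whose 96 h mean was past 1.5-fold likely higher, with the same sign on both arrays. These were 7 of 7 stromal and endothelial probes (0.87 to 2.33), 2 of 6 epithelial, 3 of 4 neural and 3 of 3 liver. They were also 0 of 1 muscle, 1 of 1 erythroid and 1 of 1 myeloid, against 79 of the 169 miRNA probes outside the pair. The muscle probes 1org-1b, 1org-1d and 1org-133 were not matched and did pass this rule, with 96 h means of 0.92, 0.90 and 0.82. Also not matched were 1org-199-s and 1org-199-as, beside the stromal miR-199a, and 1org-128, beside the neural miR-128a. Of these, 1org-199-as passed, with a 96 h mean of 2.15. 1org-199-s (1.958 and -0.058) and 1org-128 (2.383 and -0.269) had opposite signs on the turned 96 h arrays. Probes 1org-126 and 1org-126* carry the same miRNA number and are not separate markers. The stromal and endothelial list ran in its means from 1org-10b, listed as Mir10b, at 0.47 ± 1.01 to 1org-126* at 1.16 ± 1.64 (SD, n = 2). The median of this list was 0.00 at 72 h and 1.23 at 96 h, and in the other reading -1.31 and 0.85. After centring on the miRNA medians its 96 h median was 0.61. The epithelial, neural and liver medians were then 0.23, 0.50 and 0.26, against 0.18 over the 169. MiR-221 and miR-222 are themselves made by such cells. The part of these cell types in the values of the pair was not tested.

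The epithelial probes ran in their means from 1org-200a at 0.28 ± 0.44 to 1org-141 at 0.76 ± 1.37. The neural ones ran from 1org-9 at 0.46 ± 1.15 to 1org-9* at 0.69 ± 0.20, and the liver ones from 1org-194 at 0.42 ± 0.55 to Mir192 at 1.13 ± 1.69. The only probes matched for muscle and erythroid cells, Mir206 and Mir144, had 1.01 ± 0.65 and 1.05 ± 1.24 (SD, n = 2). The unmatched muscle probes 1org-1b, 1org-1d and 1org-133 had means of 0.53, 0.55 and 0.39. Of 5 T cell probes, 3 lay below 0 at both times and 1 above, against 31 and 91 of the 169. They ran from 1org-142-as to 1org-142-s at 0.55 ± 0.11 (SD, n = 2), with a median of -0.52, and of 0.25 in the other reading. Probes 1org-142-as, 2org-142* and 1org-142-s carry the same miRNA number and are not separate markers. Of these, 1org-142-s was the 1 above, and the others lay below 0 at both times. Probe 1org-181 was not matched to the listed miR-181a and not counted, with -0.11 at 72 h and 0.35 at 96 h.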

How the data were processed

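MiRNA ratios of FoxP3-transduced over control vector-transduced activated T cells were taken from 4 2-colour arrays. The log2 ratios are the values the authors deposited. How they were corrected for background and normalized, their log base and their direction are not given in the sources used here. Per the labels, channel 2 was always Cy5, and the dyes were exchanged within each time point. No intensities were used, so depth and signal over background are unknown, and the number of arrays limits the precision.

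The sign of arrays with FoxP3 in Cy3 was turned and the 2 arrays of a time point averaged as 1 replicate (n = 2). All 171 miRNA probes were fitted with an intercept-only limma model (limma 3.58.1, R 4.3.3) with Benjamini-Hochberg adjustment, which was checked on simulated data. Each p-value sets the mean of a probe against only the spread between the time points, moderated over all 171 miRNA probes. That spread may be technical, and it also holds the probe's own change with time. Control probes (7) were left out.

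Symbols came from the platform annotation, which lists 61 miRNA probes with 1 symbol, and were updated through RefSeq. Other probes keep their IDs, and lists were matched on the exact number in the ID, letter included. Probes such as 1org-1b and 1org-133 were therefore not matched to a listed miRNA and not counted. The probes named were the pair, the 5 nearest probes over the 4 turned values, the 3 next in the order of means, and the lowest and highest of each list. The pair and the lists were chosen with earlier results of these data known. Alternatives were other scalings, the other reading of the sign, each array left out, natural logs, a 2-fold threshold, robust variance and a model of 4 arrays with a dye term. The other reading combined with centring was added after the data had been seen.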

Additional observations from a re-analysis of the deposited data

How the results depend on the processing

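The mean ratios of 2org-221 and 2org-222 stayed below 0, within 1 SD of the values given, under both centrings, the natural log reading and with any 1 array left out. Taken as already turned they were 0.26 and 0.25, with 0.12 and 0.086 at 72 h and 0.40 and 0.42 at 96 h. With centring on the miRNA medians as well, they were 0.29 and 0.29, with 0.82 and 0.79 at 72 h but -0.24 and -0.22 at 96 h. The share of miRNA probes with a mean past 1.5-fold at 72 h, 7.60%, became 4.68% after centring on the miRNA medians, 56.1% taken as already turned, 44.4% with both, 0.585% at 2-fold, and 7.60% to 72.5% with 1 array left out (72.5% without 72 h replicate 1, and 94 probes without 72 h replicate 2). The 51.5% at 96 h, 9 probes likely lower and 79 likely higher, became 33.9% taken as already turned, 17.0% with centring as well, 28.7% at 2-fold, and 51.5% to 77.8% with 1 array left out (77.8% without 96 h replicate 2, and 56 likely lower and 41 likely higher without 96 h replicate 1). At 96 h, centring on the miRNA medians gave 43 probes likely lower and 30 likely higher, and centring on U6 and tRNA gave 4 and 108. With 1 array of a time point left out, its share rests on the remaining array, and the same sign on both was not required. The 0 probes called by limma became 2 after centring on the miRNA medians, the pair itself. The count became 3 taken as already turned and 7 with both, none of them of the pair, and 0 to 94 with 1 array left out. The 94 came without 72 h replicate 1 and held both probes of the pair. Without 96 h replicate 1 there were 3, with 1 of the pair. The pair had been chosen for this contrast on these same arrays, so these calls are no test of it. Robust variance, the dye term and centring on U6 and tRNA gave 0. The causes were not tested.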
